A study of Arabidopsis thaliana with 6 samples.

Results

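TAS1a, TAS1b and TAS1c are the TAS1 genes of Arabidopsis thaliana, noncoding genes whose transcripts are precursors of trans-acting small interfering RNAs (tasiRNAs). They were grouped because a single microRNA, miR173, acts on all 3, and they make up 3 of the 10 loci of a study of RNA bound to DCL4 and 2759 of the 15862 deposited positions. RNA was immunoprecipitated and sequenced from 3 lines. DCL4-6:FHA and DCL4-8:FHA each carry a tagged missense form of DCL4, expressed from the promoter of DCL4 in the dcl4-2 mutant. The third line, WT, is untagged Columbia (Col-0), so it differs from the tagged lines in DCL4 itself as well as in the tag. Each line was sampled in flowers and in seedlings, with 1 library for each line and tissue, so no difference below has a replicate check or a p-value. The 95% intervals below cover nothing but counting error, and the reads carry no molecular identifiers that would tell molecules from copies. Library totals ran from 1961876 reads for WT seedlings to 21771069 for DCL4-8:FHA seedlings.

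In the tasiRNA pathway a microRNA guides the cleavage of the TAS transcript, the RNA polymerase RDR6 copies a cleavage fragment into double-stranded RNA, and the ribonuclease DCL4 cuts that RNA into 21 nt small RNAs. miR173 belongs to the microRNAs of 22 nt, a length known to trigger such copying of the fragment 3′ of the cut. Because DCL4 starts at the cut end, the small RNAs fall into a 21 nt register counted from the cleavage point. TAS1 tasiRNAs are known to act on HTT genes, which take part in the heat response, and on genes of pentatricopeptide repeat proteins. TAS2 is a separate gene that is also cleaved under miR173, and TAS3a is a TAS gene that depends on miR390 instead.

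The miR173 sites are shown first because every distance below is counted from them. On the TAIR10 build TAS1a (AT2G27400) lies on chromosome 2 from 11721539 to 11722468, TAS1b (AT1G50055) on chromosome 1 from 18549204 to 18550042 and TAS1c (AT2G39675) on chromosome 2 from 16537288 to 16538277. All 3 are on the minus strand and are annotated by RefSeq as noncoding RNA genes, with no coding sequence. The mature miR173, from chr3:8236161-8236182 on the plus strand, has its seed (bases 2 to 8) in capitals. The sites, read 5′ to 3′ along the transcript, have in capitals the bases that form no Watson-Crick pair with miR173.
miR173: uUCGCUUGcagagagaaaucac
TAS1a site, chr2:11722081-11722102: gtgatttTtctctAcaagcgaa
TAS1b site, chr1:18549660-18549681: gtgatttTtctcAAcaagcgaa
TAS1c site, chr2:16537890-16537911: gtgatttTtctctAcaagcgaa
The sites of TAS1a and TAS1c were identical, with 20 of 22 bases paired. That of TAS1b had 19. The bases without a Watson-Crick pair lay opposite miR173 bases 9 and 15 in all 3, where base 15 formed a G:U pair, and opposite base 10 in TAS1b alone. miR173 cuts between the nucleotides that face its bases 10 and 11, so the additional mismatch of TAS1b is the first nucleotide 3′ of the cut. From that nucleotide to the annotated 3′ end the transcripts hold 552 nt in TAS1a, 466 nt in TAS1b and 612 nt in TAS1c, and 5′ of the cut they hold 378, 373 and 378 nt.

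The segments 3′ of the cut were related but not alike. Over aligned bases TAS1a was 75.6% identical to TAS1b and 75.2% to TAS1c, TAS1b and TAS1c were 61.6% identical, and identity with TAS2 was 50.2% to 53.1%. A repeat of 19 nt occurred 7 times with at most 2 mismatches, 3 times in TAS1a and 2 times each, in neighbouring windows, in TAS1b and TAS1c. All 7 copies started at position 20 of the 21 nt register counted from the cut, so each fills most of 1 window of 21 nt. Those windows are printed because they hold the sequence that the paralogs share most closely and because their coverage is compared below, with capitals for bases that differ from window 6 of TAS1b.
TAS1a window 2 (22 to 42 nt 3′ of the cut): tCctaagtccaacatagcgtT
TAS1a window 4 (64 to 84 nt): ttTtaagtcTaacatagcgtT
TAS1a window 6 (106 to 126 nt): ttctaagtccaacatagcgta
TAS1b window 5 (85 to 105 nt): ttctaagtccaacatagcAta
TAS1b window 6 (106 to 126 nt): ttctaagtccaacatagcgta
TAS1c window 3 (43 to 63 nt): ttctaagtccaacatagcgta
TAS1c window 4 (64 to 84 nt): ttctaagtTcaacataTcgAC
Window 6 of TAS1a, window 6 of TAS1b and window 3 of TAS1c were identical over all 21 nt. With U for T this is the sequence of siR255, a known TAS1 tasiRNA whose targets are HTT genes. Despite the repeat, 100% of the 50 nt stretches of each gene occurred at a unique place in the genome, 50 nt being the length of the reads. Of these stretches, 94 in TAS1a, 106 in TAS1b and 52 in TAS1c had at most 3 mismatches to a stretch of another paralog, so a read with a few errors from these places could be counted at the wrong gene.

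The level of a gene is its mean coverage per position scaled to library size (RPM), a measure per length that can be compared between the genes. TAS1a had 15.5 RPM with DCL4-8:FHA in flowers and 22.7 RPM in seedlings, against 0.105 and 0.257 RPM with DCL4-6:FHA. In WT it had 0.00678 RPM in flowers and 0.0822 RPM in seedlings, from 2 and 3 reads. TAS1a was the only paralog that was higher in seedlings than in flowers in both tagged lines. TAS1b had 8.89 RPM in flowers and 2.87 RPM in seedlings with DCL4-8:FHA, then 0.113 and 0.0637 RPM with the other tagged form, and 0.122 RPM in WT seedlings from 4 reads. TAS1c had 21.3 RPM in flowers and 9.96 RPM in seedlings with DCL4-8:FHA, whereas DCL4-6:FHA gave 0.169 and 0.139 RPM and WT seedlings 0.0257 RPM from 1 read. In WT flowers TAS1b and TAS1c had 0 reads, with upper interval bounds of 0.0139 and 0.0117 RPM. A floor of 3 reads would stand at 0.0113 and 0.00955 RPM. The DCL4-8:FHA levels lay above those of both other lines at every paralog and in both tissues, and in seedlings the DCL4-6:FHA level of TAS1b lay below that of WT.

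**Figure D1:**
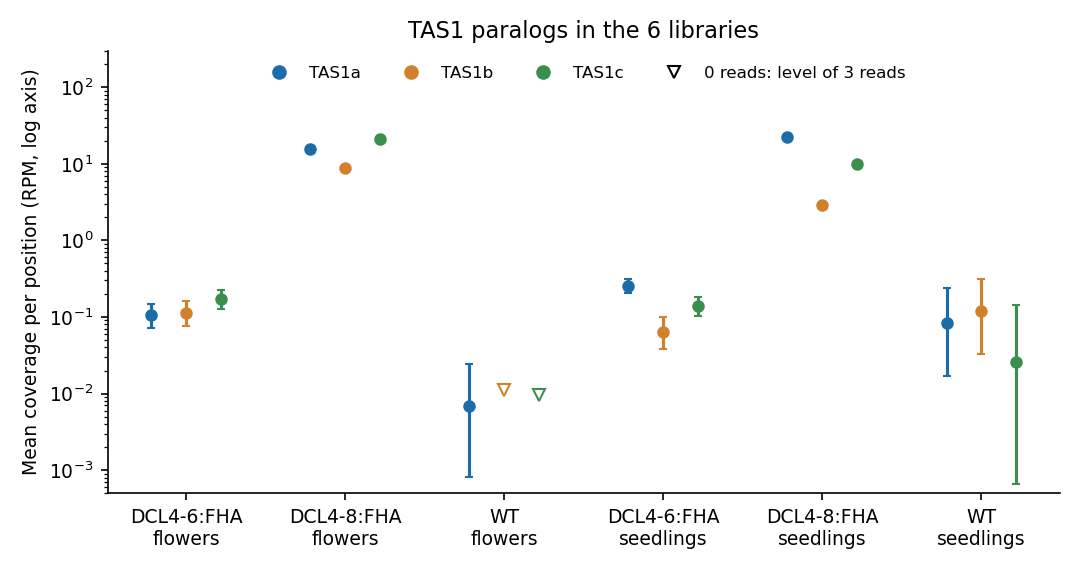
Mean coverage per position (RPM, log axis) of TAS1a, TAS1b and TAS1c in each of the 6 libraries, with exact Poisson 95% intervals; open triangles mark the level of 3 reads where a library had 0. The DCL4-8:FHA points lie between 2.87 and 22.7 RPM and the DCL4-6:FHA points between 0.0637 and 0.257 RPM.

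The order of the paralogs changed with the tissue. With DCL4-8:FHA in flowers TAS1c was 1.38-fold above TAS1a (1.31 to 1.44), which was 1.74-fold above TAS1b (1.64 to 1.85). With DCL4-8:FHA in seedlings TAS1a came first, 2.28-fold above TAS1c (2.20 to 2.36), and TAS1c was 3.47-fold above TAS1b (3.24 to 3.71). The order was the same with DCL4-6:FHA in seedlings, where TAS1a was 1.85-fold above TAS1c (1.28 to 2.68) and TAS1c 2.19-fold above TAS1b (1.26 to 3.93). With DCL4-6:FHA in flowers neighbours could not be told apart, since TAS1c was 1.497-fold above TAS1b (0.939 to 2.43) and TAS1b 1.07-fold above TAS1a (0.627 to 1.83). There the highest and the lowest, TAS1c and TAS1a, differed 1.61-fold (1.01 to 2.59).

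TAS1a was lower in flowers than in seedlings, at 0.682-fold with DCL4-8:FHA (0.655 to 0.710) and 0.411-fold with DCL4-6:FHA (0.263 to 0.626). TAS1b was 3.09-fold higher in flowers with DCL4-8:FHA (2.86 to 3.34), and its ratio with DCL4-6:FHA was 1.78 with an interval that includes 1 (0.969 to 3.34). TAS1c was 2.14-fold higher in flowers with DCL4-8:FHA (2.05 to 2.23), and its ratio with DCL4-6:FHA was 1.22 (0.810 to 1.83). With DCL4-8:FHA 2 of 3 paralogs were thus higher in flowers and 1 lower, beside 66.7% and 33.3% of the 9 loci with reads in the series. With DCL4-6:FHA 0 of 3 were higher and 1 lower, beside 33.3% and 33.3%. These shares are near the background; the result is how far the paralogs were apart from each other. The tissue ratio of TAS1a divided by that of TAS1c was 0.319 with DCL4-8:FHA (0.301 to 0.338) and 0.337 with DCL4-6:FHA (0.192 to 0.594). Divided by that of TAS1b it was 0.220 (0.202 to 0.240) and 0.231 (0.114 to 0.468). All 4 intervals exclude 1, and the lines share no library. TAS1c against TAS1b gave 0.691 with DCL4-8:FHA (0.633 to 0.754) and 0.685 with DCL4-6:FHA (0.342 to 1.37), where only the first interval excludes 1. The RNA was immunoprecipitated and no input library is among the 6. A tissue ratio therefore does not tell the level of a transcript from its binding to DCL4, the amount of tagged DCL4 or the yield. In bulk tissue, fewer cells that hold the bound RNA and less of it per cell cannot be told apart either.

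The same change appeared in the makeup of the TAS1 reads. TAS1a supplied 33.5% of the 9662 TAS1 reads of DCL4-8:FHA in flowers (exact binomial interval 32.6% to 34.5%) and 63.2% of the 14537 in seedlings (62.4% to 64.0%). With DCL4-6:FHA it supplied 27.2% of 114 reads in flowers (19.3% to 36.3%) and 55.6% of 153 in seedlings (47.3% to 63.6%). TAS1c supplied 49.1% with DCL4-8:FHA and 46.5% with DCL4-6:FHA in flowers, then 29.5% and 32.0% in seedlings. TAS1b supplied 17.4% with DCL4-8:FHA (16.6% to 18.1%) and 26.3% with DCL4-6:FHA (18.5% to 35.4%) in flowers. Its seedling shares were 7.22% (6.81% to 7.66%) and 12.4% (7.64% to 18.7%). WT held 2 TAS1 reads in flowers and 8 in seedlings, too few for a makeup.

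**Figure D2:**
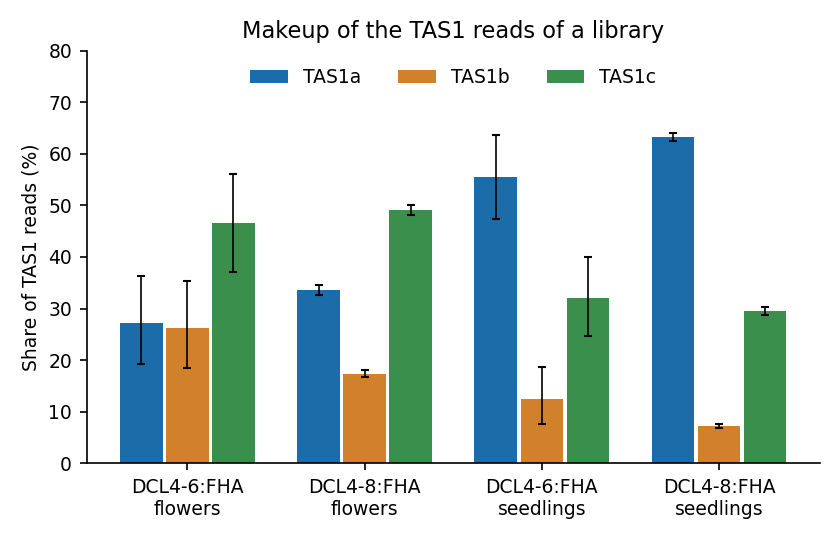
Share of the TAS1 reads of each tagged library (%) that came from TAS1a, TAS1b and TAS1c, with exact binomial 95% intervals as bars. In flowers TAS1a supplies 27.2% and 33.5%, in seedlings 55.6% and 63.2%.

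The comparison of the missense forms asks whether the transcripts were recovered to different degrees. No library here measures the amount of tagged DCL4 or the yield of an immunoprecipitation. Retention by the protein form therefore cannot be told apart from these. In flowers TAS1a was 147-fold higher with DCL4-8:FHA than with DCL4-6:FHA (103 to 216), TAS1b 78.5-fold (54.8 to 117) and TAS1c 126-fold (95.8 to 168). The seedling ratios of TAS1a, TAS1b and TAS1c were 88.3 (71.4 to 111), 45.1 (28.8 to 75.3) and 71.6 (54.04 to 96.9). For TAS1b and TAS1c the DCL4-6:FHA seedling level was not above WT, at 0.524-fold (0.174 to 2.12) and 5.41-fold (0.926 to 218). The denominators of their seedling ratios were thus not told apart from the untagged background. In flowers 3 of 3 paralogs were higher with DCL4-8:FHA beside 88.9% of the 9 loci, and in seedlings 3 of 3 beside 77.8%. Direction alone is therefore near the background, and the size is what set the paralogs apart from TAS2, which gave 32.2 in flowers and 25.5 in seedlings. The ratio of TAS1a exceeded that of TAS2 4.55-fold in flowers (3.14 to 6.60) and, in seedlings, 3.47-fold (2.75 to 4.38). TAS1c gave 3.89 (2.90 to 5.23) and 2.81 (2.09 to 3.78), and TAS1b 2.44 (1.67 to 3.56) and 1.77 (1.12 to 2.82). All 6 intervals exclude 1. TAS3a came to 55.4 in flowers (47.2 to 65.4) and, in seedlings, to 46.7 (35.8 to 61.9). Its intervals overlap those of TAS1b in both tissues and that of TAS1c in seedlings. In seedlings the ratio of TAS1b (45.1) was below that of TAS3a (46.7), so size did not set all paralogs apart from TAS3a. No ratio of ratios was taken against TAS3a, and overlap of intervals alone does not show that TAS1c was alike.

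Among the paralogs TAS1b had the smallest ratio in both tissues, but in seedlings it was not told apart from TAS1c. The ratio of TAS1c was 1.60-fold that of TAS1b in flowers (1.02 to 2.51). In seedlings it was 1.59-fold, with an interval that includes 1 (0.930 to 2.70). That of TAS1a was 1.87-fold that of TAS1b in flowers (1.13 to 3.10) and, in seedlings, 1.96-fold (1.19 to 3.23), and the intervals of TAS1a against TAS1c include 1 in both tissues (0.748 to 1.82 in flowers, 0.867 to 1.76 in seedlings). The order depended on the measure. At the highest position of each gene, TAS1a, TAS1b and TAS1c gave 123, 41.7 and 78.2 in flowers and, in seedlings, 76.1, 27.8 and 53.6. The median over positions 3′ of the cut gave 229, 254 and 295 in flowers and, in seedlings, 111, 67.8 and 65.3, from DCL4-6:FHA medians of 1 read, or 3 reads for TAS1a in seedlings. The ratio was larger in flowers than in seedlings 1.66-fold for TAS1a (1.10 to 2.51), 1.74-fold for TAS1b (0.974 to 3.11) and 1.75-fold for TAS1c (1.19 to 2.59), and 1.27-fold for TAS2 (1.09 to 1.47).

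In flowers 3 of 3 paralogs were above WT with DCL4-6:FHA and 3 of 3 with DCL4-8:FHA, beside 100% of the 9 loci in each line. The DCL4-6:FHA values rest on 31, 30 and 53 reads for TAS1a, TAS1b and TAS1c. In seedlings 3 of 3 were above WT with DCL4-8:FHA, beside 88.9%. With DCL4-6:FHA 1 of 3 was, beside 66.7%. That paralog was TAS1a, at 3.13-fold (1.03 to 15.5), and at its highest position the ratio was 2.70 with an interval that includes 1. TAS1b was at 0.524-fold (0.174 to 2.12) and TAS1c at 5.41-fold (0.926 to 218). These ratios rest on 3, 4 and 1 WT reads for TAS1a, TAS1b and TAS1c. In the WT seedling library 1 read is worth 0.510 RPM at a position, against 0.0630 RPM in WT flowers. The tissue ratios and shares with DCL4-6:FHA above also use the seedling levels of TAS1b and TAS1c. They carry the same limit.

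Coverage began at the cleavage point. With DCL4-8:FHA in flowers 0 of the 9662 TAS1 reads lay 5′ of it, where the floor of 3 reads would be a share of 0.0310%. The first covered nucleotide was 3, 4 and 3 nt past the cut in TAS1a, TAS1b and TAS1c, with positions counted from 1. With DCL4-8:FHA in seedlings the bases 5′ of the cut made up 6.28 reads of 14537, or 0.0432%. DCL4-6:FHA had 0 of 114 reads in flowers and 0 of 153 in seedlings, where 3 reads would be 2.63% and 1.96%. In WT seedlings 4.44 of the 8 reads, or 55.5%, lay 5′ of the cut, and 2 reads of TAS1b ran across it. In WT flowers both reads, of TAS1a, lay 3′ of it. RNA from both sides of the cut was thus present in the untagged background of seedlings.

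The rise past the cut was gradual rather than a step at the first nucleotide. In TAS1a with DCL4-8:FHA in seedlings, 1 read covered the first nucleotide, 45 the fourth, 98 the fifth, 228 the tenth, 594 the nucleotide at 21 and 878 that at 42. In flowers the numbers were 0, 14, 24, 66, 198 and 338. TAS1b went from 2 reads at the first nucleotide to 8 at the fourth and 122 at nucleotide 42 in seedlings, and from 0 to 10 and 233 in flowers. TAS1c went from 2 to 18 and 702 in seedlings, and from 0 to 5 and 630 in flowers. In none of these 6 profiles did more than 2 reads cover the first nucleotide. The first windows of TAS1a and TAS1b differ at a single base, that at the cut, whereas TAS1c differs from both further on.
TAS1a window 1 (1 to 21 nt): tacaagcgaatgagtcattca
TAS1b window 1 (1 to 21 nt): aacaagcgaatgagtcattca
TAS1c window 1 (1 to 21 nt): tacaagcgaatagaccattta
These windows held 0.937% to 1.47% of the coverage 3′ of the cut with DCL4-8:FHA in all 3 paralogs and both tissues.

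With DCL4-8:FHA, coverage of any depth reached the annotated 3′ end in TAS1a (552 nt) and TAS1c (612 nt) in both tissues. At 10% of the maximum the covered segment ended well before that end in all 3 paralogs. Taking positions with at least 10% of the maximum, it ran with DCL4-8:FHA in flowers from 16 to 396 nt past the cut in TAS1a, from 9 to 358 nt in TAS1b and from 16 to 326 nt in TAS1c. In seedlings it ran from 17 to 296, from 10 to 299 and from 13 to 280 nt. With DCL4-8:FHA it was shorter in seedlings in 3 of 3 paralogs, at 280, 290 and 268 nt against 381, 350 and 311 nt. DCL4-6:FHA, with few reads, did not repeat this. Its segment was longer in seedlings for TAS1a (373 against 362 nt) and TAS1b (325 against 243 nt). For TAS1c it was shorter (222 against 258 nt). The DCL4-8:FHA lengths move with the threshold. In TAS1b they were near equal at 20% of the maximum, with 262 nt in flowers and 260 nt in seedlings. Past 420 nt, or 20 windows, lay 0.930% of the DCL4-8:FHA coverage of TAS1a in flowers, 0.463% in seedlings and at most 0.0831% of that of TAS1b and TAS1c. TAS1c, with the longest 3′ segment, had the shortest DCL4-8:FHA covered part in both tissues at 10% and at 5% of the maximum. At 20% TAS1a was the shortest instead (234 nt in flowers and 127 nt in seedlings). At 3 reads or more TAS1c was the longest (610 and 594 nt).

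Within the segment the profiles of the paralogs had different shapes. The highest 21 nt window of TAS1a with DCL4-8:FHA was window 6 (106 to 126 nt), the identical siR255 window, with 94.2 RPM and 13.7% of the coverage in flowers and 175 RPM and 17.4% in seedlings. With DCL4-6:FHA it was window 8 (148 to 168 nt) in flowers at 19.1% and window 7 (127 to 147 nt) in seedlings at 20.4%. TAS1b had its maximum in window 8 with DCL4-8:FHA in flowers (12.1%) and DCL4-6:FHA in seedlings (19.6%), in window 9 (169 to 189 nt) with DCL4-6:FHA in flowers (19.9%) and in window 5, a repeat window, with DCL4-8:FHA in seedlings (12.8%). In TAS1c window 8 was the highest in all 4 tagged libraries, at 12.1%, 13.6%, 19.5% and 19.3% for DCL4-8:FHA in flowers and seedlings and DCL4-6:FHA in flowers and seedlings.

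TAS1c had a maximum on either side of a low. With DCL4-8:FHA in seedlings window 4, a repeat window, held 13.3% of the coverage, window 6 held 6.26% and window 8 held 13.6%. In flowers these windows held 8.54%, 4.63% and 12.1%. TAS1b had a shallower low at window 6, with 12.8%, 9.58% and 12.6% in windows 5, 6 and 8 in seedlings and 9.46%, 8.23% and 12.1% in flowers. TAS1a had a single main maximum. The 21 nt window that the paralogs share therefore stood at the maximum of TAS1a (rank 1 of 26 with DCL4-8:FHA in both tissues), in the low of TAS1b (rank 5 of 22 in both) and on the near shoulder of TAS1c (rank 7 of 29 in flowers and 5 in seedlings). The other windows with the repeat ranked from 1 to 11 with DCL4-8:FHA and from 4 to 19 with DCL4-6:FHA.

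**Figure D3:**
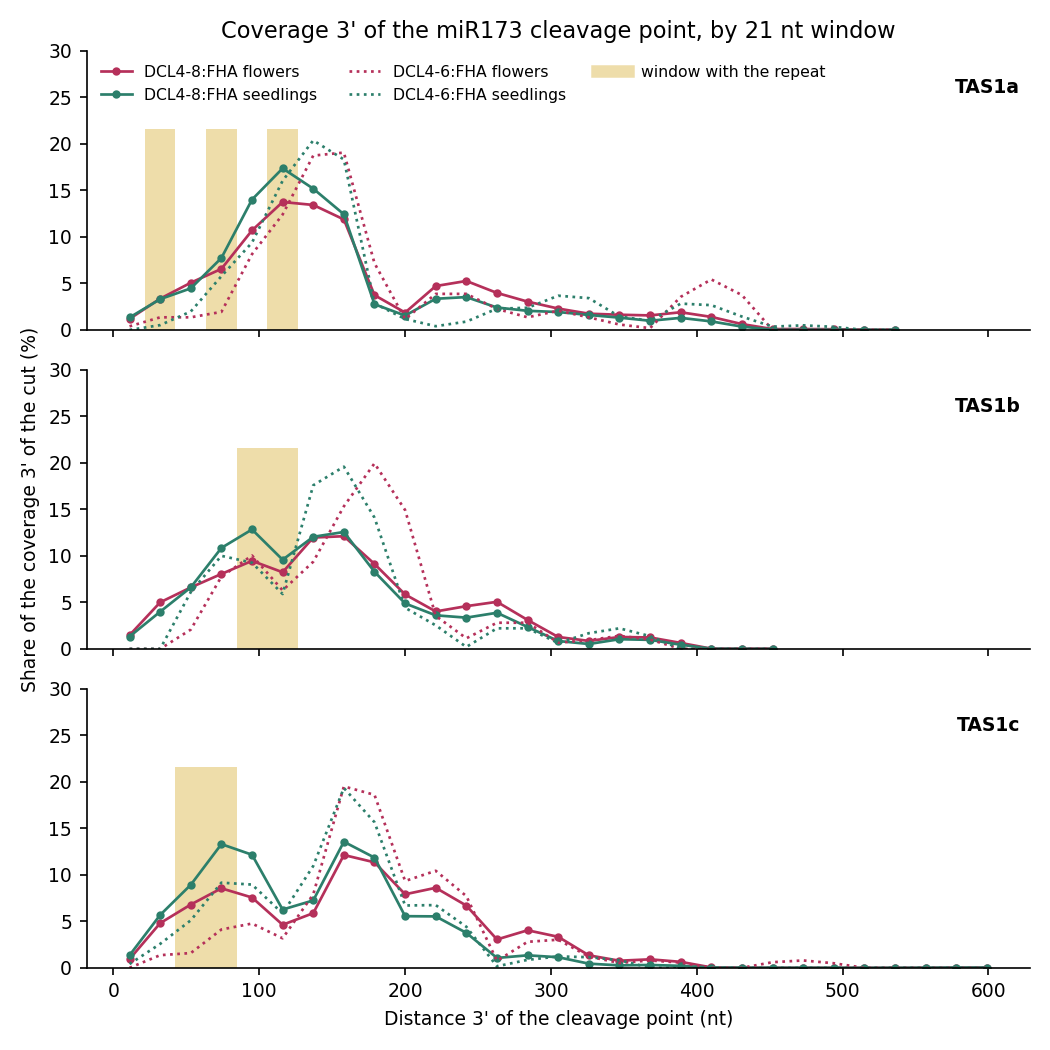
Share of the coverage 3′ of the cut (%) in each 21 nt window against distance from the miR173 cleavage point (nt), for TAS1a, TAS1b and TAS1c in the 4 tagged libraries; shading marks windows with the 19 nt repeat. TAS1a has a single main maximum, TAS1b and TAS1c have a low at window 6 (106 to 126 nt), and the DCL4-6:FHA lines reach about 19% to 20% where the DCL4-8:FHA lines reach 12.1% to 17.4%.

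Over the 22 windows that all paralogs have, the profiles of TAS1b and TAS1c were the most alike with DCL4-8:FHA in seedlings (Pearson's r = 0.917), and those of TAS1a and TAS1b in flowers (0.865). TAS1a and TAS1b gave r = 0.876 in seedlings, TAS1b and TAS1c 0.843 in flowers, and TAS1a and TAS1c, the pair with the lowest likeness, 0.584 in flowers and 0.663 in seedlings. TAS1a was as close to TAS2, at 0.836 and 0.896. Neighbouring windows share reads of 50 nt, so these values describe the shapes and carry no p. Flowers and seedlings of the same paralog gave r = 0.982 for TAS1a, 0.971 for TAS1b and 0.918 for TAS1c with DCL4-8:FHA over 26, 22 and 29 windows, the last close to the 0.917 between TAS1b and TAS1c in seedlings. With DCL4-6:FHA they gave 0.939, 0.826 and 0.919, and TAS1b against TAS1c gave 0.853 in flowers and 0.926 in seedlings. In that line TAS1a against TAS1b gave 0.561 in flowers and 0.786 in seedlings, and TAS1a against TAS1c 0.595 and 0.639. The lowest pair in flowers was thus TAS1a and TAS1b there, unlike with DCL4-8:FHA. Positions were also matched by sequence alignment with DCL4-8:FHA, instead of by equal distance from the cut. The likeness then fell for TAS1b and TAS1c, to 0.590 in flowers and 0.697 in seedlings. It rose for TAS1a and TAS1c in flowers to 0.694.

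A larger share of the DCL4-6:FHA coverage lay from 106 to 210 nt past the cut. That segment from 106 to 210 nt held 58.5%, 65.8% and 58.5% of the coverage 3′ of the cut with DCL4-6:FHA in flowers for TAS1a, TAS1b and TAS1c, against 44.7%, 47.3% and 41.9% with DCL4-8:FHA. In seedlings it held 58.7%, 61.6% and 58.5% against 49.3%, 47.4% and 44.4%. The segment from 1 to 105 nt held 11.8% to 26.2% with DCL4-6:FHA and 26.9% to 41.4% with DCL4-8:FHA. The coverage as a whole was not narrower with DCL4-6:FHA throughout. The span that holds the central 90% was longer than with DCL4-8:FHA for TAS1a in flowers (333 against 326 nt) and seedlings (326 against 293 nt) and for TAS1b in seedlings (263 against 241 nt), and shorter in the other 3 pairs. Past 420 nt TAS1a had 3.75% with DCL4-6:FHA in flowers and 2.62% in seedlings, from 31 and 85 reads in all. The ratio of DCL4-8:FHA to DCL4-6:FHA was larger from 1 to 105 nt than from 106 to 210 nt in 6 of 6 pairs of paralog and tissue. The factor was 3.53 for TAS1c in flowers (1.47 to 8.49), 2.09 for TAS1a in seedlings (1.17 to 3.72) and 2.08 for TAS1c in seedlings (1.08 to 4.01). The other 3 intervals include 1, and the DCL4-6:FHA segment from 1 to 105 nt held 4 to 15 reads. TAS2 gave 1.36 in flowers (1.02 to 1.81) and, in seedlings, 1.5004 (1.18 to 1.91), so this was not particular to TAS1.

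The mean distance of the coverage from the cut was larger in flowers. With DCL4-8:FHA it was 166 nt ± 1.66 (standard error over reads) in flowers and 150 nt ± 0.880 in seedlings for TAS1a, 154 nt ± 1.97 and 143 nt ± 2.31 for TAS1b, and 166 nt ± 1.20 and 135 nt ± 1.08 for TAS1c. Flowers exceeded seedlings by 16.5 nt (12.9 to 20.2), 10.4 nt (4.45 to 16.3) and 30.5 nt (27.3 to 33.7). With DCL4-6:FHA the differences had the same sign, at 10.998 nt (-30.7 to 52.7), 12.1 nt (-26.0 to 50.3) and 35.4 nt (8.71 to 62.0), and that of TAS1c alone had an interval that excludes 0. TAS2 also lay farther out in flowers with DCL4-8:FHA, by 15.0 nt (12.6 to 17.5), so a shift by itself did not set the TAS1 genes apart. DCL4-8:FHA coverage lay nearer to the cut than DCL4-6:FHA coverage in 6 of 6 pairs, by 10.3 to 28.5 nt. Only the differences of TAS1a in seedlings (-28.5 nt, -49.7 to -7.24) and of TAS1c in flowers (-21.0 nt, -41.2 to -0.797) had intervals that exclude 0. TAS2 went the other way, with DCL4-8:FHA coverage farther out by 9.30 nt in flowers (2.53 to 16.1) and by 0.640 nt in seedlings (-4.00 to 5.28).

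The tissue ratio therefore depended on the distance from the cut. For TAS1c with DCL4-8:FHA flowers exceeded seedlings 1.48-fold from 1 to 105 nt (1.38 to 1.59), 2.01-fold from 106 to 210 nt (1.89 to 2.15), 4.28-fold from 211 to 315 nt (3.87 to 4.74) and 6.30-fold from 316 to 420 nt (4.62 to 8.72). The last ratio rests on 176 and 54 reads. The ratio grew in each further segment, and the last was 4.26-fold the first (3.12 to 5.83). For TAS1b the ratios were 2.67, 3.10, 3.99 and 4.24, and the last was 1.59-fold the first (1.02 to 2.48). For TAS1a they were 0.594, 0.618, 0.991 and 0.916, and the last was 1.54-fold the first (1.31 to 1.82). TAS1a was thus lower in flowers over the first 210 nt, and beyond it the intervals include 1, from 0.898 to 1.09 and from 0.789 to 1.06. TAS2 gave 0.954, 0.820, 1.36 and 1.83, with the last 1.92-fold the first (1.67 to 2.22). The growth with distance was steeper in TAS1c than in TAS1a, TAS1b and TAS2, whose intervals for it lie below that of TAS1c.

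**Figure D4:**
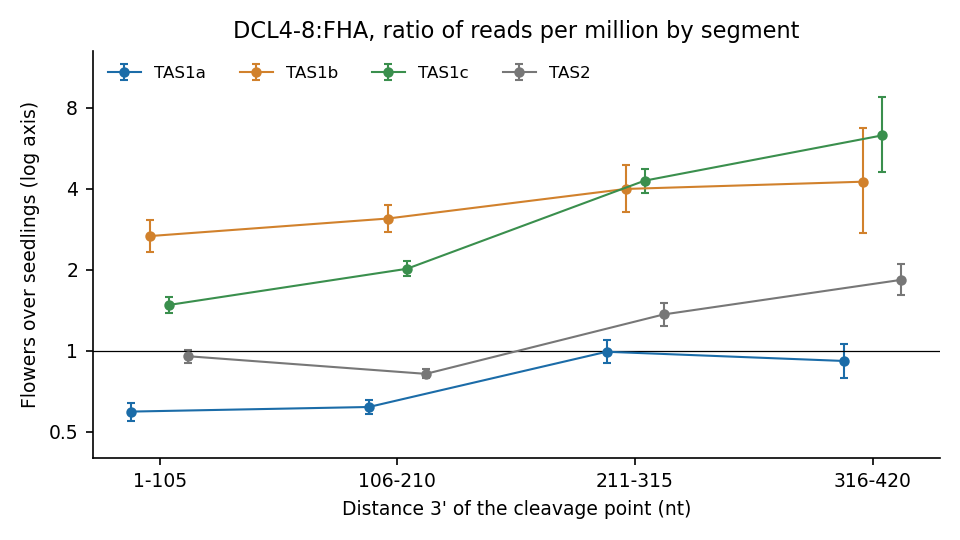
Ratio of flowers to seedlings with DCL4-8:FHA (log axis) in segments of 105 nt counted from the miR173 cleavage point, for TAS1a, TAS1b, TAS1c and TAS2, with exact 95% intervals for counting error. TAS1c goes from 1.48 to 6.30, TAS1b from 2.67 to 4.24, and TAS1a from 0.594 to 0.916.

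Some read positions recurred across libraries. Rises in coverage from a nucleotide to the next, with a fall 50 nt on, mark stretches where many reads lie at the same place. The fall follows from the read length of 50 nt and does not show where an RNA ended. Without strand, either edge of a stretch may be the one set by the read length. In TAS1a the stretch with the largest rise in both DCL4-8:FHA libraries ran from 118 to 167 nt past the cut, with 147 reads in flowers and 544 in seedlings. It was also first or second with DCL4-6:FHA, with 3 and 9 reads. In TAS1b the stretch from 134 to 183 nt came first in both DCL4-8:FHA libraries, with 112 and 74 reads, and in DCL4-6:FHA seedlings with 4. It was not among the 5 largest rises of TAS1b in DCL4-6:FHA flowers, where the stretch from 164 to 213 nt came first with 5 reads. In TAS1c the stretch from 204 to 253 nt had 331 reads in flowers and 191 in seedlings with DCL4-8:FHA, and that from 137 to 186 nt had 296 and 299. Both recurred with DCL4-6:FHA, with 6 and 3 reads and with 10 and 5. The 4 stretches are printed because they recurred, with capitals for bases inside the repeat.
TAS1a, chr2:11721924-11721973, 118 to 167 nt: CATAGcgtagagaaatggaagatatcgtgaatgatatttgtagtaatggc
TAS1b, chr1:18549487-18549536, 134 to 183 nt: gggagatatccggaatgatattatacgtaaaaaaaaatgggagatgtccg
TAS1c, chr2:16537647-16537696, 204 to 253 nt: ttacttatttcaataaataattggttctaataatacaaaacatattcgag
TAS1c, chr2:16537714-16537763, 137 to 186 nt: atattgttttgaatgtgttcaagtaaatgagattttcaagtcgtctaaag
The stretch of TAS1a begins inside the last copy of the repeat, and the others lie 3′ of it. Whether such a pile holds many molecules or copies of a few cannot be told from coverage.

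The ends did not share a single 21 nt register across the paralogs. With DCL4-8:FHA the register with the largest share of rises was register 7 in TAS1a, with 13.1% in flowers and 14.7% in seedlings. It was register 8 (11.9%) and register 17 (14.0%) in TAS1b, and register 11 (10.2%) and register 14 (11.9%) in TAS1c. An even spread would give 4.76% to each. The largest of the 21 shares cannot lie below that value, so the comparison shows no preference for a register by itself. Register 1, which starts at the cut, held 6.80% and 7.84% in TAS1a and 9.31% and 8.26% in TAS1b. In TAS1c it held 0.524% and 0.326% and was the lowest of the 21. These register numbers hold for positions counted from 1 and would shift by 1 if positions count from 0. The values have no strand, so ends of both strands are mixed. Coverage does not give the lengths of the fragments, so the ends are not known to be those of 21 nt products.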

How the data were processed

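RNA from 6 immunoprecipitations (DCL4-6:FHA, DCL4-8:FHA and WT, in flowers and seedlings) was sequenced as single-end reads of 50 nt, per the labels' protocols. The authors deposited a signal for each position of a locus, read coverage scaled to library size (RPM). TAIR10, HISAT2 2.0.5 and bedtools 2.25.0 are named with no role in the submitters' processing notes; no source used here states how strand and reads with several places were treated. The deposited seedling tables are headed seeds.

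Within a library the coverage values were whole multiples of a step, which gave the library total; reads are coverage summed over a gene divided by 50. Positions were read as counted from 1: each table starts 1 base before the annotated gene, and that row held 0 reads in all 60 profiles. Sequence and annotation came from RefSeq (TAIR10.1), and the miR173 site was the best match in each gene. Paralogs were aligned with MAFFT 7.526. Ratios have exact conditional intervals, ratios of ratios normal intervals on the log scale, shares Clopper-Pearson intervals, all at 95%; a gene is called higher or lower where the interval excludes 1. Where a library had 0 reads, 3 reads were the floor. The calculations (Python 3.11.15, numpy 2.4.6, scipy 1.17.1) were tested on simulated counts and on simulated reads of exactly 50 nt. The simulation held no reads that end early, so it does not cover the case described next. Rebuilding read ends with a fixed length gave numbers below 0 at some positions, so net rises and falls in coverage were used instead, with a rebuild that lets reads end early as an alternative chosen after seeing the data. The 3 paralogs are named with all values, TAS2 and TAS3a for comparison, and the highest 21 nt window of each paralog in each tagged library. The genes, segments and measures were chosen with earlier results of these data known. With 1 library per group no test was run, and the spread between cultures or plants is unknown.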

Additional observations from a re-analysis of the deposited data

How the results depend on the processing

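Of the ratios of DCL4-8:FHA to DCL4-6:FHA, all 18 alternative values (highest position, median over positions 3′ of the cut, division by the ratio of TAS2) stayed above 1 with an interval that excludes 1. Of the 18 for flowers over seedlings, 15 kept their direction and call. For TAS1a with DCL4-6:FHA the median gave 0.375 with an interval that includes 1, from medians of 1 and 3 reads, and relative to TAS2 the DCL4-6:FHA ratios of TAS1b and TAS1c became 2.40 and 1.65 with intervals that exclude 1. Over WT, 11 of 12 kept their call at the highest position; TAS1a with DCL4-6:FHA in seedlings did not, at 2.70. Shares of TAS1 reads by mean coverage per position, which allows for gene length, were 19.5% and 8.08% for TAS1b and 46.6% and 28.0% for TAS1c with DCL4-8:FHA in flowers and seedlings; over the same number of positions 3′ of the cut 12 of 12 stayed inside their interval. The covered segment with DCL4-8:FHA followed its threshold by construction. In flowers and seedlings it was 418 and 392 nt for TAS1a, 385 and 381 for TAS1b and 377 and 312 for TAS1c at 5% of the maximum; 234 and 127, 262 and 260, and 289 and 231 at 20%; and 496 and 527, 392 and 388, and 610 and 594 at 3 reads or more, where TAS1a was longer in seedlings. Mean distances moved by less than their interval with positions counted from 0. Without the highest window they became 174 and 157 nt for TAS1a in DCL4-8:FHA flowers and seedlings, 151 nt for TAS1b and 132 nt for TAS1c in seedlings. Correlations of profiles stayed within 0.1 with 50 nt windows. Matched by sequence alignment they were 0.694 (TAS1a and TAS1c, flowers), 0.590 and 0.697 (TAS1b and TAS1c, flowers and seedlings) and 0.769 (TAS1a and TAS1b, seedlings); on log2 of coverage plus 1 read they were 0.830 and 0.864 (TAS1a and TAS1c, flowers and seedlings) and 0.969 (TAS1b and TAS1c, flowers). The top register held 11.1% and 11.9% in TAS1a, 9.26% in TAS1b in flowers and 8.53% in TAS1c in flowers with rebuilt ends, and 15.9% for TAS1a and 13.1% for TAS1c in seedlings without the position with the most ends. The cause of these moves was not tested. No paired analysis was possible because each group has 1 library and so a single replicate number, and for the same reason no replicate could be left out. Counting error is largest for DCL4-6:FHA and WT, with 19 to 85 and 0 to 4 reads per paralog; of these libraries only that of WT seedlings had a smaller total than DCL4-8:FHA in flowers.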
